A study of Sus scrofa with 8 samples.

Results

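The regions described here are stretches of H3K27ac at the ends of protein-coding genes that were found in pig epiblast stem cells and not in pig fibroblasts. There were 2454 of them, out of 98547 merged regions on chromosomes 1 to 18. Cultured cells of both types were profiled by ChIP-seq, with 2 H3K27ac libraries each and a matching input for every library. Libraries pgEpiSC 1 and pgEpiSC 4 hold chromatin of stem cells derived from the epiblast of day 10 embryos, before gastrulation. Libraries pEF 1 and pEF 2 hold chromatin of fibroblasts of day 30 fetuses. The labels name no genotype, treatment, line or animal, so the spread between libraries of a kind may be technical, biological or both. Input density on the X chromosome differed between libraries of a kind, as given below, and the reason was not tested. As a measure of depth, islands of pgEpiSC 1 and 4 held 29679982 and 38230571 ChIP reads, and those of pEF 1 and 2 held 42444995 and 46383051.

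H3K27ac is acetylation of lysine on the tail of histone H3, written by the coactivators p300 and CBP. It marks active promoters and active enhancers, and is removed as a locus falls silent. At genes in use it usually lies around the transcription start, and enhancers that carry it differ between cell types more than promoters do. Epiblast cells before gastrulation form a polarised epithelium that expresses POU5F1, SOX2 and NANOG, whereas fibroblasts are mesenchymal cells that make collagen-rich matrix.

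The regions were chosen by the presence of islands, the stretches in which ChIP reads cluster, in the deposited list of each library. Overlapping islands of the 4 libraries were merged, and a region was kept when it held an island of both pgEpiSC libraries and of neither pEF library. It also had to be narrower than 20 kb and to reach within 2 kb of an end of a protein-coding gene. The comparison of pgEpiSC with pEF was thus used up by the choice, and no measure of that comparison is tested here. Reads outside islands are not in the lists, so the absence of a pEF island says that reads did not cluster there and gives no level. Fewer cells with the mark and less of it per cell cannot be told apart in such bulk samples. The reference table gives no strand, so a gene end may be a start or a far end.

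Of 93734 regions under 20 kb, 21044 had islands in both pgEpiSC libraries and in neither pEF library (22.5%). Among the 16213 regions at gene ends, this held for 2454, or 15.1%. Regions at gene ends were mostly shared, as 8629 of them had an island in all 4 libraries (53.2%). The epiblast-only regions lay more often inside genes, with 9598, and between genes, with 8992, and 11.7% of them lay at gene ends. The fibroblast-only regions numbered 1528 at gene ends, 9.01% of all fibroblast-only regions.

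Maps of 6 loci, picked after their values were seen, show what such regions look like. CER1 encodes a secreted antagonist of NODAL, BMP and WNT signals made at the onset of gastrulation. Its region at chromosome 1, 207809401 to 207828200, held 2129 and 2891 ChIP reads in pgEpiSC 1 and pgEpiSC 4. Its fold over input was 3.48 (95% counting interval 3.18 to 3.80) and 3.79 (3.47 to 4.13), and the nearest pEF island was 7.80 kb away. DPPA4, a chromatin-bound protein of pluripotent cells, had a region of 11.4 kb on chromosome 13, 150162601 to 150174000. It was enriched 2.60-fold and 2.92-fold, with the nearest pEF island 64.8 kb away. LRRN1, a leucine-rich repeat membrane protein, stood 82.2 kb from the nearest pEF island, with folds of 3.64 and 4.16. ERBB3, a receptor of neuregulins, and EPCAM, an epithelial adhesion molecule, differed from these 3, since each also had pEF islands at its other end.

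**Figure D1:**
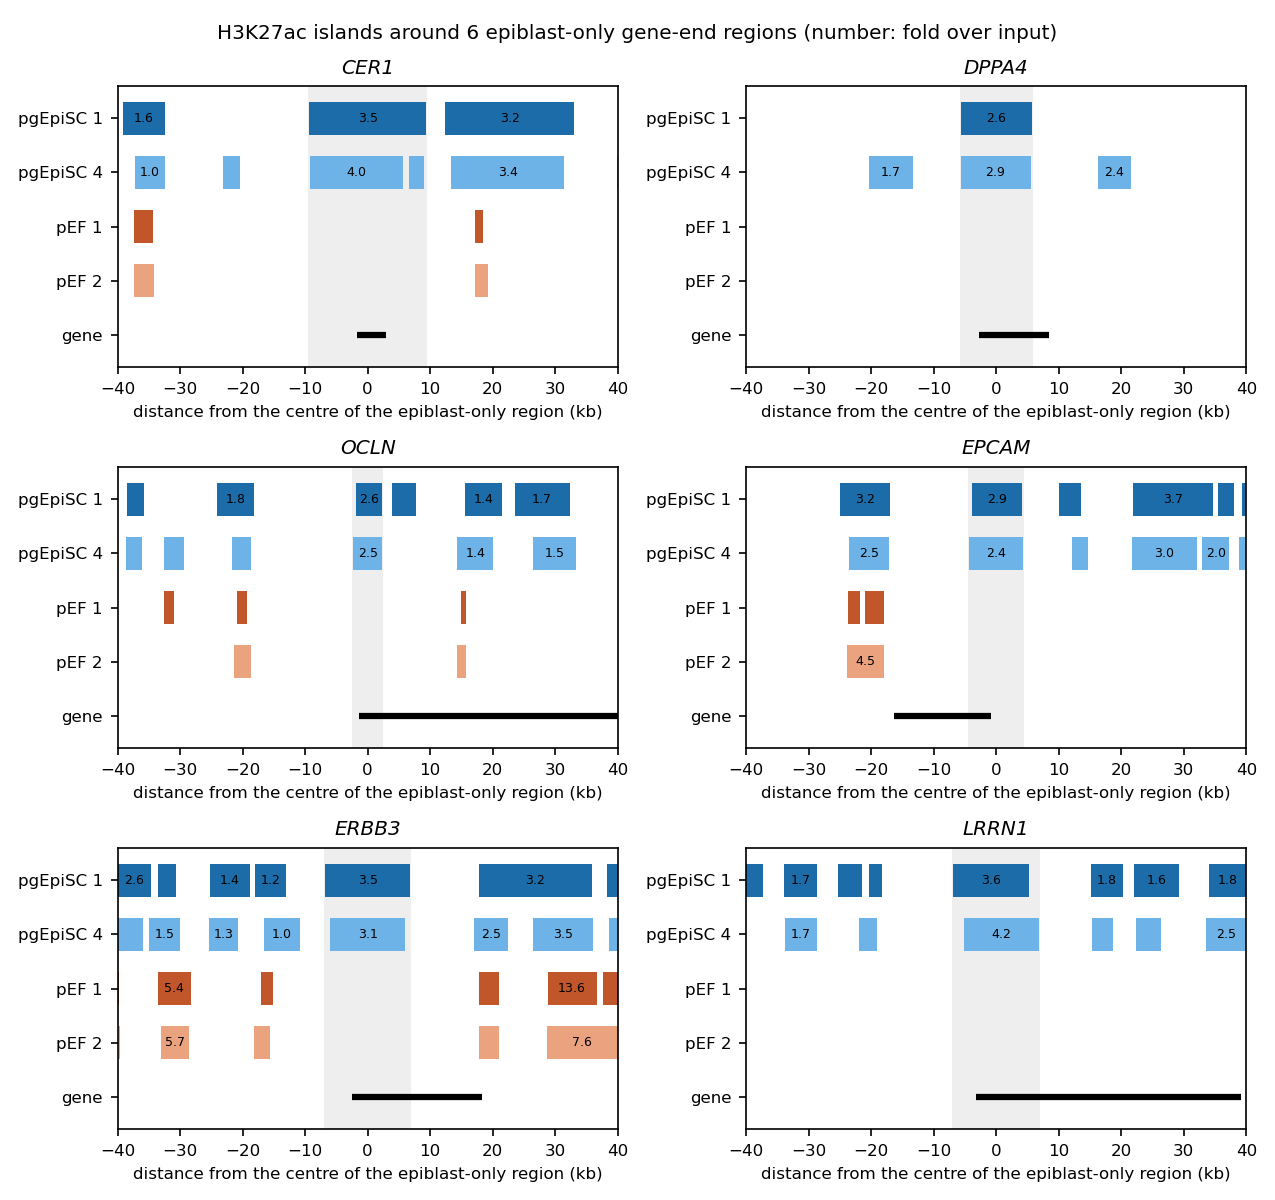
Islands of the 4 libraries within 40 kb of the centre of 6 epiblast-only gene-end regions. The x axis is the distance in kb from the centre of the region (grey band), each bar is an island, the number in a wide bar is its fold over input, and the black line is the gene. No pEF island enters a grey band, and the pEF islands drawn for EPCAM lie beside the end opposite to its band.

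Enrichment over input was low in most of these regions. The fold is the ratio of ChIP to input reads scaled by library size, as the authors' lists define it. Its median was 1.69 in pgEpiSC 1 and 1.61 in pgEpiSC 4, and the middle 90% of regions spanned 1.19 to 2.87 and 1.16 to 2.64. A fold of at least 2 was reached by 26.1% of regions in pgEpiSC 1, by 18.9% in pgEpiSC 4, and by 294 regions in both (12.0%). In 31 regions both folds were at least 3, and in 33 a fold was below 1. The median region held 282 and 369 ChIP reads, and the 5th percentile was 125 and 147. The authors' lists give a false discovery rate (FDR) of each island against input, and a region took the lowest FDR of its islands. This lowest FDR was under 0.01 in both libraries for 2266 regions and under 1e-10 in both for 1306. Several islands lay in 192 regions in pgEpiSC 1 and in 267 in pgEpiSC 4.

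The same libraries were more enriched where the mark was shared. Shared gene-end regions had median folds of 2.58 in pgEpiSC 1 and 2.34 in pgEpiSC 4, and 75.4% and 65.7% of them reached 2-fold. Epiblast-only regions away from gene ends were closer, with medians of 1.69 and 1.63 inside genes and 1.82 and 1.73 between genes. Fibroblast-only regions at gene ends had medians of 3.77 in pEF 1 and 3.48 in pEF 2. Over all islands, enrichment was higher in pEF libraries. Of the islands, 37.1% and 27.8% reached 2-fold in pgEpiSC 1 and 4, against 84.7% and 85.6% in pEF 1 and 2. Folds are therefore not compared between the cell types. None of these differences between classes was tested, since the classes were set by the islands themselves and regions are not replicates.

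**Figure D2:**
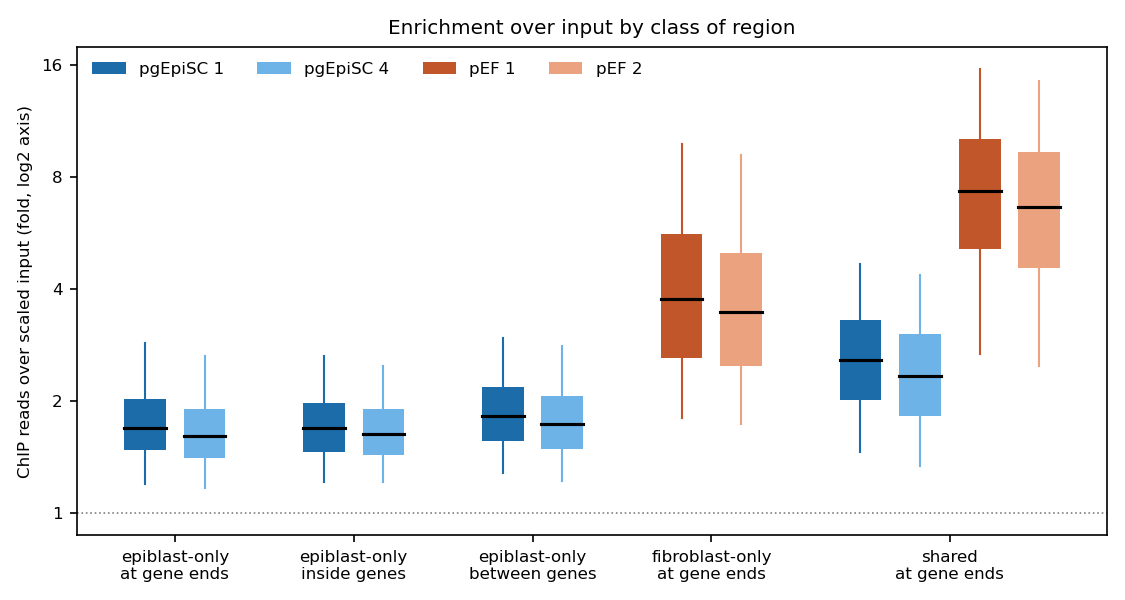
Fold over input (log2 axis) by class of region and library. Boxes span the 25th to the 75th percentile, thin lines the 5th to the 95th, and black bars the median. Epiblast-only regions at gene ends have medians of 1.69 and 1.61, below the 2.58 and 2.34 of the same libraries in shared gene-end regions.

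Folds in the 2 pgEpiSC libraries were related but differed from region to region. Every region had to hold an island of both, so presence in both libraries does not measure their agreement. Over the 2454 regions, Pearson's r between the log2 folds was 0.573 and Spearman's rho 0.491, a description across regions that share libraries and input. The fold was higher in pgEpiSC 1 in 1457 regions, with a median ratio of 1.05, and it differed by over 1.5 times in 244 and by over 2 times in 29. Of all bases under an island in these regions, 64.7% lay under islands of both libraries, an overlap that the choice itself raises. SPINT1, which encodes an inhibitor of the epithelial protease matriptase, differed clearly, at 4.35 (95% counting interval 3.77 to 5.03) in pgEpiSC 1 and 2.37 (2.09 to 2.69) in pgEpiSC 4. LRP5, a WNT co-receptor, also differed, at 4.10 and 2.36, in a region 0.601 kb from a pEF island. Counting intervals cover counting error only, and these 2 pairs do not overlap.

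**Figure D3:**
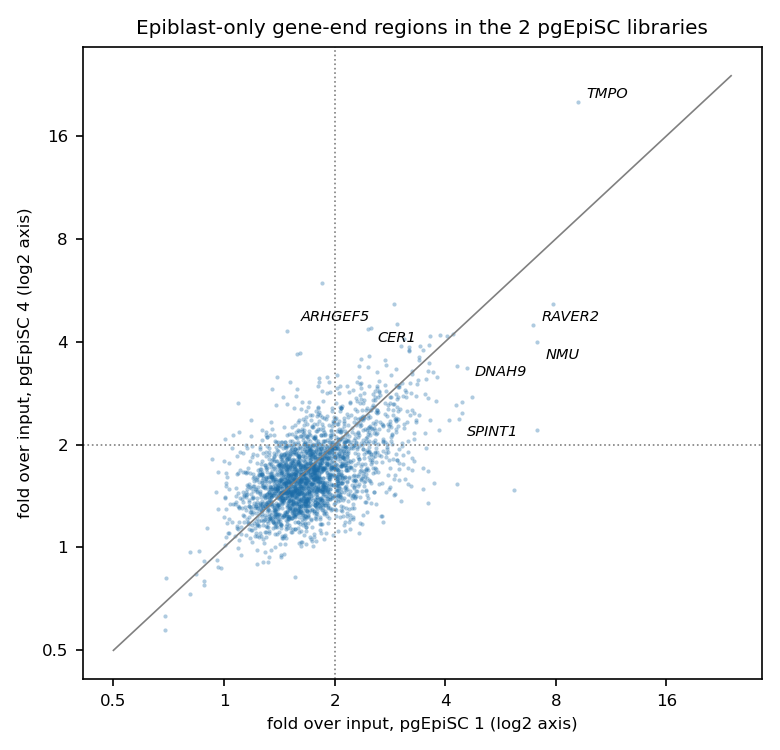
Fold over input of each of the 2454 regions in pgEpiSC 1 (x axis) and pgEpiSC 4 (y axis), both on log2 axes. The solid line marks equal folds and the dotted lines mark 2-fold. Most points lie below 2-fold in both libraries, and 294 lie at or above it in both.

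The 10 regions with the highest lower fold, among those with at least 100 ChIP reads in both libraries, belonged to unrelated genes. RAVER2, an RNA-binding protein, had 6.96 (4.09 to 12.6) and 4.48 (3.18 to 6.44), from 106 and 214 ChIP reads. The region over LSR and FAM187B was enriched 4.19-fold and 4.22-fold, and LSR encodes a lipoprotein receptor that also builds tricellular tight junctions. The region over ZSCAN10 and ZNF205 had 4.04 and 4.16, and lay 0.601 kb from a pEF island. ZSCAN10 is a zinc finger factor of mouse embryonic stem cells. NMU, a neuropeptide gene, had 7.12 and 3.99, TPD52L1 had 3.88 and 4.18, NUBP1 had 3.60 and 3.46, and ENPP5 had 3.42 and 3.88. CER1 and LRRN1, given above, and a region shared by 3 genes without names complete the list. Genes at the LSR, ZSCAN10 and NMU regions had a pEF island at an end, and those at the other regions of the list had none. At TMPO, which encodes a lamina-associated protein, a region of 0.400 kb had 9.22 and 20.1, but its input held only 9 and 4 reads, and the intervals were 4.62 to 20.9 and 7.59 to 75.2. Dense reads alone did not mark enrichment. A region of 0.600 kb at LOC110256821 held 291 and 881 ChIP reads against 280 and 446 input reads, which is 1.09-fold and 1.65-fold.

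Regions had a median width of 6.40 kb, and the middle 90% spanned 2.20 to 15.6 kb. The gene end itself was covered by 1775 regions, while 679 came within 2 kb without covering it. A single gene was served by 1993 regions, 2 genes by 422 and more than 2 by 39, so genes of such pairs share 1 measurement. In all, 2704 of 18722 protein-coding genes had such a region (14.4%), of which 2420 have a gene symbol and 284 only a LOC number. Their median length was 28.4 kb, against 20.7 kb over all genes. No test was made of this difference.

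Most of these genes were not free of the mark in fibroblasts. An island of a pEF library lay at 1 of their ends in 1677 genes (62.0%), against 75.3% of all protein-coding genes. Of the 2704 genes, 1413 had a shared region at an end and 105 a fibroblast-only region. A broad epiblast-only region of 20 kb or more lay at an end of 48. Over all 18722 protein-coding genes these counts were 12075, 1685 and 212, and the differences were not tested. Each of the 2704 genes was picked through an end region without a pEF island. The choice thus used the same pEF islands and itself bears on these counts and on the 62.0%. Of the 2327 genes with an epiblast-only region at a single end, 1335 had a shared region at the opposite end and 581 had no region there at all. The remaining 377 genes had epiblast-only regions at both ends, 212 of them through 1 region that spans the gene. In 805 genes no pEF island lay anywhere in the gene or within 2 kb of it, and the same count over all genes is not given here.

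The distance to the nearest pEF island had a median of 10.6 kb. It was within 2 kb for 301 regions (12.3%) and over 50 kb for 323 (13.2%). Epiblast-only regions inside genes and between genes had larger medians, of 14.0 and 23.6 kb, and 19.2% and 31.7% of them were over 50 kb away. None of these differences in distance was tested.

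Fewer of the more enriched regions lay at genes with a pEF island at an end, a difference that was not tested. Of the 294 regions of at least 2-fold in both libraries, 128 lay at a gene with a pEF island at an end (43.5%), against 1380 of the 2160 others (63.9%). Their median distance to a pEF island was 15.8 kb, against 10 kb, though it was 16.2 kb from 2 to 3-fold and 13.0 kb at 3 or more, and their median width was 7.30 kb, against 6.20 kb. Input reads per kb were similar, at 35.3 and 39.0 in pgEpiSC 1 and 4, against 36.1 and 40.5 in the other regions. In bins of the lower fold, the share with a pEF island at an end was 67.8% in the 373 weakest regions, 68.0% in the next 834, which reach a fold of 1.5, 58.8% from 1.5 to 2, 45.6% from 2 to 3 and 25.8% in the 31 regions at 3 or more.

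Of the genes that mark epiblast and epithelium, EPCAM and GRHL2, described with their lists below, had a region of this kind. POU5F1, SOX2, NANOG, LIN28A, OTX2, SALL4, PRDM14, DNMT3B, CDH1, ESRP1, CLDN6 and CLDN7 had none. OTX2, SALL4 and PRDM14, which are transcription factors of the epiblast, had epiblast-only regions that were too broad, at 37.4, 35.8 and 57.2 kb. At its other end SALL4 had a region with islands of all 4 libraries. ESRP1 also had a broad epiblast-only region, of 22.6 kb, with 3.03 and 3.19 in pgEpiSC 1 and 4. At OTX2 the folds were 3.83 and 3.25, and at PRDM14 they were 2.46 and 2.17. At POU5F1, SOX2, LIN28A, DNMT3B and CDH1 the end lay in a region with islands of all 4 libraries. The region over POU5F1, which encodes OCT4, spanned 54.2 kb and had 3.15 and 2.95 in pgEpiSC 1 and 4. Its islands covered 46.8 kb in each pgEpiSC library, against 11.2 and 9.4 kb in pEF 1 and 2. At SOX2 islands covered 67.8 and 65.8 kb in pgEpiSC 1 and 4, against 3 and 2.8 kb in pEF 1 and 2. The regions over NANOG were likewise shared with pEF or held islands of 1 library of a kind. Of the fibroblast genes, COL1A2, a collagen chain, had a fibroblast-only region with folds of 8.29 and 10.3 in pEF 1 and 2. TWIST1, a mesenchymal factor, had one with 8.40 and 12.4. The other fibroblast genes were not fibroblast-only throughout. COL1A1, COL3A1 and both ends of PRRX1 had regions with islands of all 4 libraries. FN1 had such a shared region at 1 end and a fibroblast-only region at the other. The region at THY1 held islands of both pEF libraries and of pgEpiSC 1.

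Counts per gene group below stand against the 14.4% of all protein-coding genes that had such a region and the median lower fold of 1.51 over those genes, of which 335 of 2704 reached 2-fold in both libraries. Of the core pluripotency factors, 2 of 15 had a region (13.3%). These were DPPA4 and LIN28B, a repressor of let-7 microRNAs, whose region had 1.70 and 1.39. Of 18 formative and primed epiblast genes, 2 had one. GRHL2, an epithelial transcription factor, had 2.14 and 1.91 at 1 end and a broad epiblast-only region of 20.4 kb at the other, and POU3F1 had 1.65 and 1.58. Of 15 naive pluripotency genes, DPPA3 had 1.51 and 1.70 and ESRRB, an orphan nuclear receptor, had 1.26 and 1.40. The share in each of these 3 lists was close to or below that of all genes.

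Epithelial adhesion and polarity genes had such regions at 11 of 36 (30.6%), with a median lower fold of 1.60. Islands were found at CLDN10, EPCAM, KRT8, MARVELD2, MARVELD3, OCLN, OVOL2, PARD6B, SPINT1, ST14 and TJP3. OCLN, which encodes the tight junction protein occludin, had a region of 4.6 kb at chromosome 16, 47599201 to 47603800. It held 533 and 714 ChIP reads, with folds of 2.61 (2.23 to 3.08) and 2.48 (2.14 to 2.88). EPCAM had 955 and 1166 reads and folds of 2.91 (2.57 to 3.31) and 2.38 (2.12 to 2.67) at chromosome 3, 93181801 to 93190400. A shared region of 8.0 kb at the other end of EPCAM had 3.22 and 2.55 in pgEpiSC 1 and 4. MARVELD3, another tight junction membrane protein, had 2.87 and 2.13 over 18 kb. With SPINT1 these were the 4 of the 11 genes at 2-fold or more in both libraries. No pEF island lay at an end of 7 of the 11, against 1027 of all 2704 genes with a region.

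**Figure D4:**
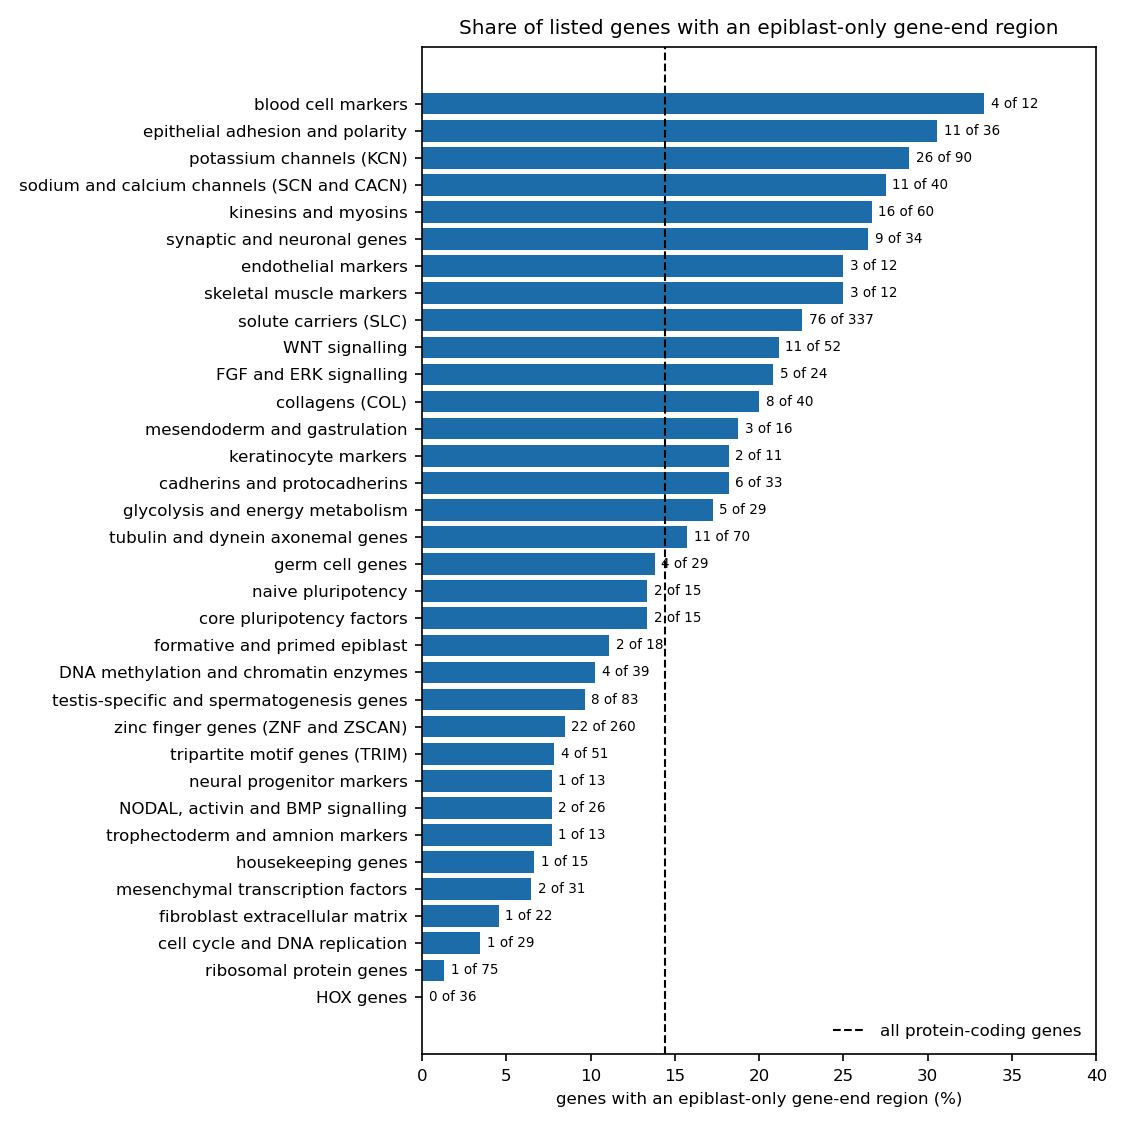
Share of the measured genes of each list that had an epiblast-only gene-end region (x axis, %), for 34 lists, with the count beside each bar. The dashed line marks the 14.4% of all protein-coding genes. The highest bars are blood cell markers at 33.3%, epithelial genes at 30.6% and potassium channel genes at 28.9%, while 0 of 36 HOX genes had such a region.

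Among mesendoderm and gastrulation genes 3 of 16 had a region. Beside CER1 these were EOMES, a T-box factor of the primitive streak, with 2.24 and 1.58, and MESP1, a mesoderm factor, with 1.84 and 2.01. Of 29 germ cell genes 4 had one. DND1, an RNA-binding protein of primordial germ cells, had 2.66 (2.26 to 3.13) and 2.79 (2.41 to 3.24), but its region also covered ends of HARS and WDR55, both with pEF islands at an end. DAZL, a germ cell translation factor, had 1.92 and 1.82 over 14.8 kb, and ASZ1 and MOV10L1 stayed at 1.64 or lower in both libraries.

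Signalling genes with such regions encode ligands, receptors and inhibitors. In the FGF and ERK list 5 of 24 had a region (20.8%), namely ERBB2, ERBB3, FGF19, FGFR4 and IL17RD. ERBB3 had 1814 and 2009 ChIP reads and folds of 3.54 (3.21 to 3.90) and 3.10 (2.82 to 3.42) at chromosome 5, 21470001 to 21483600. FGFR4, a receptor of FGF19, had 2.80 and 1.90, whereas ERBB2 had 1.34 and 1.21. In the WNT list 11 of 52 had one (21.2%). They comprised the ligands WNT5B, WNT7B, WNT8A, WNT8B and WNT11, the co-receptors LRP5 and LRP6, the R-spondin receptor LGR6, and the inhibitors DKK3, NKD2 and ZNRF3. A fibroblast-only region also lay at an end of 11 of the 52 genes, against 1685 of all 18722 protein-coding genes. LRP6 had 2.00 and 1.87 in a region 0.801 kb from a pEF island. In the NODAL, activin and BMP list only BMP7 and BMPR1A of 26 genes had one (7.69%). At BMP7, a BMP ligand, the folds were 3.35 (2.70 to 4.18) and 3.0 (2.47 to 3.67), and at the receptor BMPR1A they were 1.67 and 1.71.

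Transporters and ion channels included genes with such regions in each family listed. Of 337 solute carriers, 76 had a region (22.6%), of which 10 reached 2-fold in both libraries. SLC39A2, a zinc importer, had 2.64 and 3.06. SLC38A8, a glutamine transporter, had 2.36 and 2.72 in a region of 19.6 kb that also reached NECAB2, 44.6 kb from a pEF island. SLC44A3 had 2.38 and 2.65, and SLC4A5, a bicarbonate cotransporter, had 2.37 and 2.38. Of 90 potassium channel genes 26 had a region (28.9%). No pEF island lay at an end of 18 of these, against 1027 of all 2704 genes with a region. Shared end regions were also few over the whole family, at 26 of 90 genes, against 12075 of 18722 protein-coding genes. KCNMB2, an accessory subunit of the BK channel, had 2.35 and 2.40, KCNJ3 had 2.43 and 2.08, KCNJ2 had 2.08 and 2.18, and KCNB2 stayed just under 2-fold. Sodium and calcium channels had one at 11 of 40 (27.5%). SCN3A had 2.18 and 2.28, and CACNG1 and CACNG4 shared a region with 1.91 and 2.07.

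Synaptic and neuronal genes had a region at 9 of 34 (26.5%), with a median lower fold of 1.87. No pEF island lay at an end of 7 of the 9, against 1027 of all 2704 genes with a region. The neural progenitor list had 1 of 13, PAX6, with 1.52 and 1.33, and PAX6 also carried a fibroblast-only region of 10 kb with 5.82 and 3.83 in pEF 1 and 2.

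Genes of cell structure gave mixed shares. Kinesins and myosins had a region at 16 of 60 (26.7%), including MYO5B (2.99 and 1.70), MYO5C (2.78 and 1.94), KIF5C (2.18 and 2.84) and MYO1A (2.23 and 2.18). MYO5B drives apical recycling in epithelia. Tubulin and axonemal genes had one at 11 of 70 (15.7%), near the share of all genes. DNAH9, an outer arm dynein of cilia, had 4.57 (3.93 to 5.34) and 3.36 (2.91 to 3.88), 138 kb from a pEF island, and TUBB4A had 2.79 and 2.30. Cadherins and protocadherins had one at 6 of 33 (18.2%), of which CDH9 had the highest lower fold, with 1.75 and 2.30.

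Of 29 genes of glycolysis and energy metabolism, 5 had a region (17.2%). All 5 had a pEF island at an end, as did 1677 of all 2704 genes with a region. HK1, the hexokinase of most tissues, had 2702 and 3537 ChIP reads and folds of 4.30 (3.95 to 4.69) and 3.39 (3.14 to 3.65) in a region that came within 1927 bp of its end. HK2 had 1.37 and 2.13. The region over IDH2, mitochondrial isocitrate dehydrogenase, and ZNF710 had 2.96 and 2.72. PDK1, an inhibitor of pyruvate dehydrogenase, had 1.66 and 1.94. DNA methylation and chromatin enzymes had one at 4 of 39 (10.3%), namely CBX7, CHD7, MTF2 and PRMT8, all under 2-fold. ZNF and ZSCAN genes had one at 22 of 260 (8.46%), TRIM genes at 4 of 51 (7.84%) and testis and spermatogenesis genes at 8 of 83 (9.64%).

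**Figure D5:**
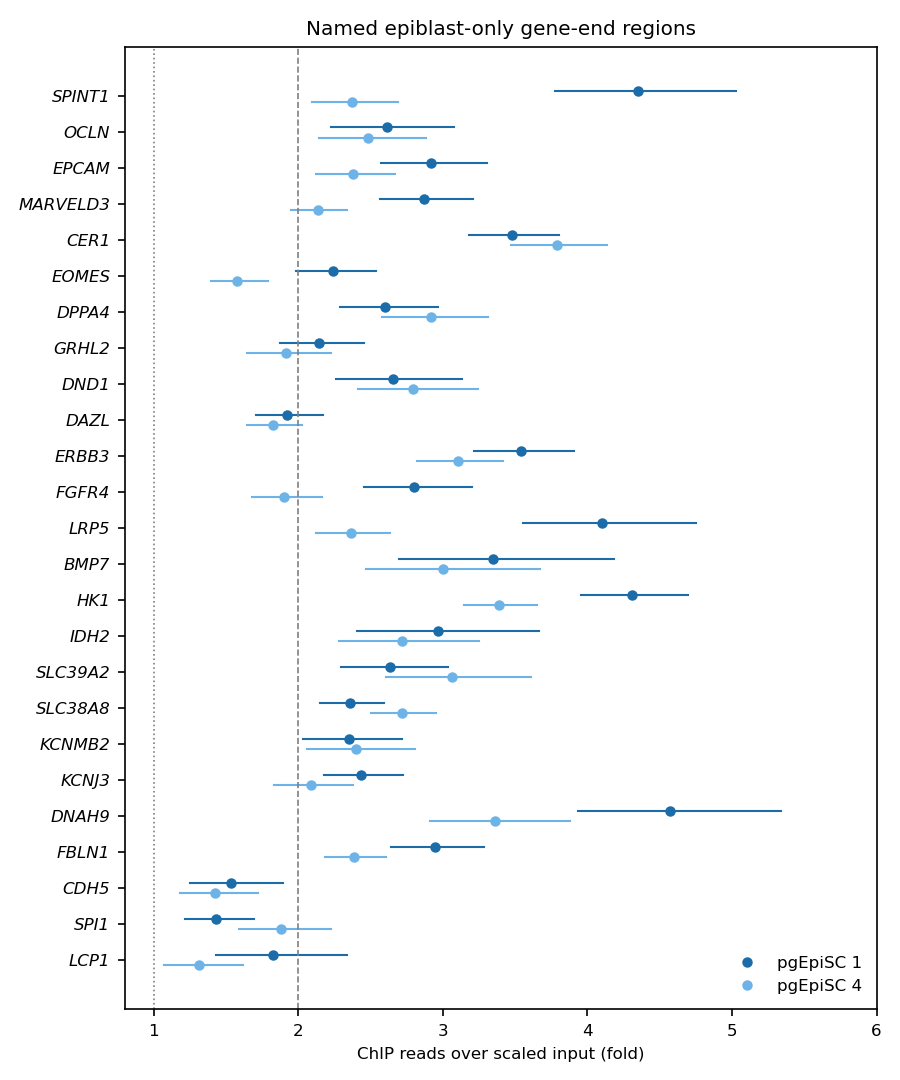
Fold over input of 25 named regions in pgEpiSC 1 and pgEpiSC 4 (points), with 95% exact counting intervals (lines). The x axis is the fold, the dotted line marks 1 and the dashed line marks 2. Regions at SPINT1, OCLN, EPCAM, CER1, ERBB3, HK1 and DNAH9 lie above 2 in both libraries, and those at CDH5, SPI1 and LCP1 lie below 2 in both.

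Genes used in every cell and genes of fibroblasts gave low counts. The counts were 0 of 36 HOX genes, 1 of 75 ribosomal protein genes, 1 of 29 cell cycle genes and 1 of 15 housekeeping genes. Fibroblast matrix genes had 1 of 22 and mesenchymal factors 2 of 31. Collagens, taken as a whole family, had a region at 8 of 40 (20%), and 0 reached 2-fold in both libraries. These were COL2A1, COL4A2, COL9A3, COL11A2, COL18A1, COL20A1, COL21A1 and COL22A1, and not COL1A1, COL1A2 or COL3A1. A shared region lay at an end of 73 of the 75 ribosomal protein genes and 26 of the 29 cell cycle genes. A fibroblast-only region lay at 31 of the 36 HOX genes. Over all 18722 protein-coding genes, 12075 had a shared region at an end and 1685 a fibroblast-only region. The matrix gene was FBLN1, which encodes fibulin-1, at 2.94 (2.64 to 3.28) and 2.39 (2.18 to 2.61) over 16.4 kb. The mesenchymal factors were FOXF1, with 1.37 and 1.28, and ALX4, with 1.5 and 1.17.

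Markers of cell types that the labels do not name also had regions. They lay at 4 of 12 blood cell genes (33.3%), 3 of 12 endothelial genes, 3 of 12 skeletal muscle genes, 2 of 11 keratinocyte genes and 1 of 13 trophectoderm and amnion genes, and none of the genes with a region reached 2-fold in both libraries. SPI1, a myeloid factor, had 1.43 and 1.88 in a region 0.201 kb from a pEF island, beside shared regions at its ends. LCP1, a leukocyte actin bundler, had 1.82 and 1.31, CSF1R 1.55 and 1.59, and CORO1A 1.68 and 1.38. CDH5, the endothelial cadherin, had 1.53 and 1.42. The median lower fold was 1.40 in the blood list, 1.58 in the endothelial, 1.60 in the muscle, 1.54 in the keratinocyte and 1.24 in the trophectoderm and amnion list, against 1.51 over all genes with a region. Their part in the results was not tested. TP63, a keratinocyte factor, had 1.56 and 2.12, and TTN had 1.67 and 1.60. CDX2, ELF5, KDR, MYOD1 and KRT5 had no island at an end in any library. Other markers of such cell types had end regions of other classes. MYOG, DES and 1 end of PECAM1 had regions with islands of all 4 libraries, as did the neural genes HES5 and NEUROG2. The trophectoderm markers GATA3 and HAND1 had fibroblast-only regions.

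Regions were spread over all 18 chromosomes, from 12.0% of genes on chromosome 4 to 18.6% on chromosome 11. Of the regions, 290 (11.8%) fell in 84 runs of at least 3 regions that lay within 50 kb of the next. The share for other gene-end regions was not computed, so 11.8% is no measure of clustering. The longest run had 7 regions over 202 kb of chromosome 2, from 651001 to 853200, across the gel-forming mucin genes MUC6, MUC2, MUC5AC and MUC5B and the adjoining TOLLIP. Its median lower fold was 1.56. A run of 4 regions at the kallikrein protease genes KLK8 to KLK14 on chromosome 6 had a median of 1.77, and a run of 4 across VPS18, RHOV, SPINT1 and PPP1R14D on chromosome 1 had 1.88. A run of 6 on chromosome 16 crossed SLC6A3, SLC6A18, SLC6A19 and TERT, the telomerase reverse transcriptase gene, with a median of 1.49. In 1 run of 5 regions at LOC genes on chromosome 3, the median was 0.927, so input reads were as dense as ChIP reads there.

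The limits of the choice cut through a continuous range. Just under the 20 kb limit were the region at HK1, 19.8 kb wide, and that at SLC38A8, 19.6 kb wide. Just over it, at 20 kb, were regions near CEP83 (1.45 and 1.5), near CSF1R and HMGXB3 (1.61 and 1.32), and at a pair of LOC genes (2.81 and 2.52). At the 2 kb limit, the regions of LOC100523457, VWA2 and ERBB2 lay 1991, 1981 and 1980 bp from the gene end. Those of MGLL and TRAF3IP3 were left out at 2006 and 2009 bp.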

How the data were processed

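H3K27ac ChIP-seq of pgEpiSC and pEF was analysed from 4 island lists, 1 for each H3K27ac library; the reads of the 4 inputs appear only inside them. BWA 0.7.15, SAMtools 0.1.19 and SICER 1.1 were used, per the submitters' processing notes. The deposited count columns hold ChIP and input reads per island. The deposited fold column is their ratio times 1 constant per list. The deposited p-value and FDR columns compare ChIP with input, and the FDR reached 1, so no limit had been applied. Islands were at least 800 bp apart within a list. Genome build, duplicate removal and mapping filters are not given in the sources used here.

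Genes were the 18722 protein-coding genes of the RefSeq table of Sscrofa11.1 on chromosomes 1 to 18. Its coordinates were used because, on each of the 18 chromosomes, islands covered a larger share of gene ends than of points shifted by 20 kb. It gives no strand and no sequence, so the planned promoter comparison was not made. Coordinates are 1-based. A region's fold was its summed ChIP over summed input reads times the constant of the list. Intervals are exact (Clopper-Pearson) at 95%, from ChIP among ChIP plus input reads. No test was made. The members and lists were chosen with earlier results of these data known. Of 539 listed symbols 502 matched, in 35 lists and name families. Genes named were those of highest lower fold per list, those of highest fold, width or read density, and those next to each limit. A few genes named by this rule, and 1 list, are not reported here. The overlap steps were tested on simulated data. Software was Python 3.11.15 with matplotlib 3.10.9 for plots, scipy 1.17.1 for intervals, and pandas 2.3.3 and numpy 2.4.6.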

Additional observations from a re-analysis of the deposited data

Results flagged for a closer look

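The X chromosome lay outside the choice of regions, and it too held epiblast-only regions at gene ends. By the same rule there were 49, of which 22 had a fold of at least 2 in both pgEpiSC libraries (44.9%), against 12.0% on chromosomes 1 to 18. SLC7A3, a transporter of cationic amino acids, had 6.45 and 5.57. The median fold was 3.57 in pgEpiSC 1 and 1.97 in pgEpiSC 4, and 47 of 49 regions had the higher fold in pgEpiSC 1. Input reads per kb of islands on X, relative to those on chromosomes 1 to 18, were 0.680 in pgEpiSC 1 and 0.967 in pgEpiSC 4, against 0.548 in pEF 1 and 0.868 in pEF 2. The labels used here do not give the sex of the cells, and the part of sex and of input density in the folds was not tested.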

How the results depend on the processing

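The number of regions, the genes at them, the share of epiblast-only regions at gene ends, the median fold over both libraries, the regions of at least 2-fold and the median width were recomputed under 13 settings. Counts were taken to have moved beyond 1.5 times, and the share outside a 95% binomial (Wilson) interval of 11.2% to 12.1%. That interval counts regions, which are not replicates. The median fold was set against its standard deviation over the 2 pgEpiSC libraries (0.0566). The width was set against that of the median covered length (0.141 kb). By these limits 49 of the 78 values stayed and 29 moved. Counting only islands of at least 2-fold left 348 regions at 393 genes, with a share of 10.3%, a median fold of 2.49 and a width of 7.4 kb. An FDR under 1e-10 left 1384 regions at 1573 genes, with 11.1%, 1.88 and 7.6 kb. The share was 10.2% with a window of 1 kb, 16.9% with 5 kb and 11.2% with a width limit of 10 kb. The width was 6.6 kb with an FDR under 0.01, a window of 1 kb, no width limit or islands merged within 1 kb, 6.2 kb with a window of 5 kb, 5.4 kb with a limit of 10 kb and 7.2 kb with 57790 islands from each library.

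Leaving out 1 library at a time gave 2689 to 3935 regions at 2960 to 4031 genes, shares of 10.1% to 12.3%, median folds of 1.55 to 1.66, 346 to 789 regions of at least 2-fold and widths of 4.2 to 6.4 kb. Without pgEpiSC 1 there were 3935 regions, 617 of them of at least 2-fold, and without pgEpiSC 4 there were 3261 and 789, since a single library then sets both the choice and the fold. No paired analysis was possible because the cell types share only the replicate number 1 and no test was made. The planned limit to transcription starts and the promoter comparison were not run, since the gene table used here gives neither strand nor sequence. Low input counts limit the folds of narrow regions.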
